A study of Danio rerio with 21 samples.

Results

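The knockdown of runx1 was followed in a sorted gate of zebrafish embryo cells (DP-R1hi). The authors propose that this gate holds the aortic cells that go on to make blood stem cells. Cells of the DP-R1hi gate were sorted from embryos at 28–30 hours post fertilisation (hpf) in which the P2 promoter of runx1 drove Citrine and kdrl drove mCherry, and RNA was sequenced from 3 libraries of embryos injected with a runx1 morpholino (MO) and 3 of non-injected embryos (Wt). The genes described are all 676 rows of the table that compares these 6 libraries, out of 11479 genes that the authors tested and 21 samples in the series. Both groups carried TgBAC(runx1P2:Citrine) and Tg(kdrl:mCherry), and the groups differed in the injection. The control was non-injected, so the MO and the act of injection cannot be told apart in this design. Whole embryos were dissociated and the gate was set on Citrine and mCherry, so any cell carrying both colours could enter it. Every clutch was split into injected and non-injected embryos, and embryos were pooled before sorting. Values of runx1 were not analysed here.

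Runx1 is the DNA-binding subunit of a core-binding factor. In the floor of the dorsal aorta it is switched on in haemogenic endothelium (HE), endothelial cells that round up, leave the vessel wall and become haematopoietic stem and progenitor cells. HE forms without Runx1 in vertebrate embryos, but these cells do not go on to release blood, and the factor is known both to switch on blood genes and, with partners such as the Gfi1 repressors, to silence endothelial ones. The earlier primitive wave of the zebrafish, which makes embryonic erythrocytes and macrophages, shares many of its factors with HE.

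The MO is a modified antisense oligonucleotide of 25 bases that lies across the end of exon 1 and the start of intron 1 of the runx1 transcript from the P2 promoter. Its sequence is shown because it defines what was blocked, with the strand it pairs to below it, and the capitals mark GTAAG, the letters with which many introns begin, and their complement.
runx1P2 MO: agcgctCTTACcgtatttggcgtcc
paired strand: ggacgccaaatacgGTAAGagcgct
Counted from the 5′ end, CTTAC begins at position 7 of the MO and GTAAG at position 15 of the paired strand. No genome was used to place these letters, and their position on a chromosome was not analysed here.

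In non-injected embryos the gate carried mRNA of haemogenic genes and also of genes of mature blood cells. Against the aortic roof gate (DP-R1lo), the Wt means in the table of those gates were 194 and 5.19 CPM for gfi1aa, 40.3 and 0.871 for gfi1ab, 806 and 158 for myb, 5.49 and 1.11 for gata2b, and 300.4 and 148 for tal1. CPM is a read count relative to the size of the library (effective, after the authors' normalisation), and each table was normalised on its own, so the Wt DP-R1hi means here differ slightly from those set against MO. The endothelial genes kdrl and cdh5 stood at 15 and 23.5 CPM in DP-R1hi against 125 and 269 in DP-R1lo. Of these markers the MO table listed gfi1ab and tal1. In that table the 2 listed granulocyte and mast cell genes summed to 6164 to 8004 CPM in the Wt libraries. The 17 listed globin and haem synthesis genes summed to 3.98 to 5.32% of the library in Wt. Which cells in the gate these reads came from was not tested. Libraries held 15 to 17.6 M reads for Wt and 9.72 to 14.9 M for MO (effective sizes), so that 1 read was worth 0.0568 to 0.103 CPM. Pearson's r between replicates, taken across genes that are not independent of each other, was 0.936 to 0.980.

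Of the 676 listed genes, 421 had higher and 255 lower values in MO. Differences are given as MO minus Wt on the log2(CPM + 1) scale, on which changes of genes with low levels appear too small. A gene was called at an adjusted p under 0.05 in limma, with Benjamini-Hochberg adjustment over all 11479 genes tested. The fit itself held the 676 listed genes alone. Limma called 280 genes, 41.4% of those listed, of which 178 (26.3%) rose and 102 (15.1%) fell. Without adjustment 661 genes (97.8%) had a p under 0.05, and the values of the groups did not overlap for 630 genes (93.2%), with 386 (57.1%) higher and 244 (36.1%) lower in MO. Every listed gene had been called by the authors on the same libraries, so none of these shares is independent evidence, and the count for any group of genes is read against 41.4%. The listed genes took up 11.3 to 13.1% of the library in Wt and 21 to 28.8% in MO. Rescaling each library by its median ratio over the listed genes lowered the differences by a median of 0.76 on the log2 scale, turned 13 higher values and 0 called ones, and moved the calls to 293, with 56 higher and 237 lower. Because the table holds only changed genes, that scaling is no check of the authors' normalisation.

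**Figure D1:**
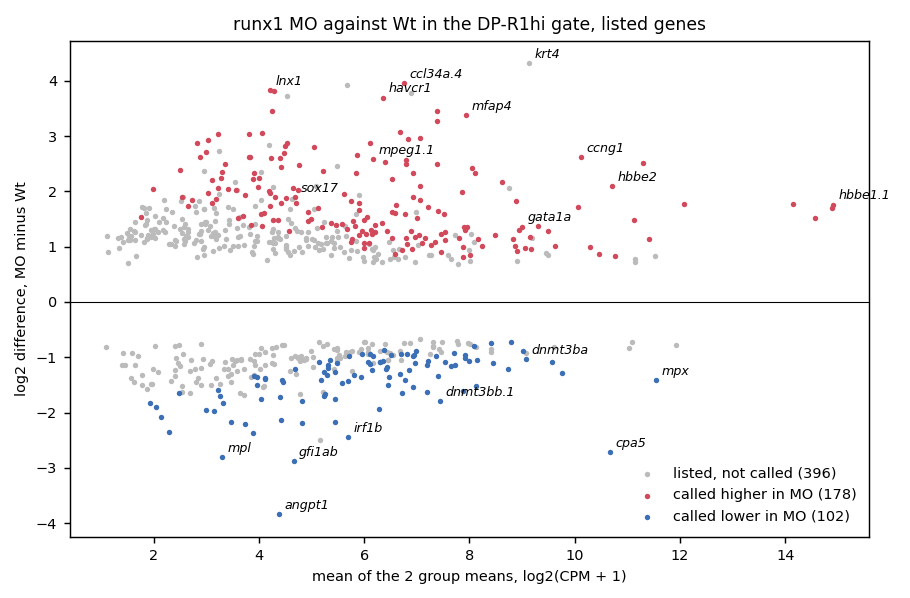
Each point is 1 of the 676 listed genes, with the mean level on the x axis in log2(CPM + 1) and the log2 difference, MO minus Wt, on the y axis. The 178 genes called higher reach 3.96 (ccl34a.4) and the 102 called lower reach −3.84 (angpt1), while krt4 has a higher difference (4.32) and was not called, its 3 MO libraries standing at 2397, 874 and 18.4 CPM.

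Libraries are named by group and replicate number (Wt 1, MO 1). A fit that paired the libraries of equal number (the replicate block) called 376 genes, 242 higher and 134 lower. Removing libraries changed the count of calls. It was 101 without Wt 1, 94 without Wt 2 and 176 without Wt 3, and 195, 230 and 206 without MO 1, MO 2 and MO 3. A call was kept in all 6 of these fits by 82 genes, 66 higher and 16 lower. Those genes are described in most detail, and for the others the libraries whose absence removed the call are named with the adjusted p.

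Transcription factors of blood formation moved both ways, with gfi1ab and irf1b falling and gata1a, tfec and several others rising. Of 28 factors on the list 15 were listed, 7 rose, 4 fell and 4 were not called, with a median difference of 1.08 beside 1.02 over all listed genes. The zinc finger repressor gene gfi1ab had 35.2, 53.4 and 42.3 CPM in Wt 1 to 3 and 4.94, 5.09 and 4.94 in MO 1 to 3. Every MO library lay far below every Wt library, and the MO libraries lay close together. The means were 43.6 ± 9.19 and 4.99 ± 0.0850 CPM (SD, n = 3), a difference of −2.88 ± 0.28 (SE, limma adjusted p = 7.00e-04). Irf1b, an interferon regulatory factor, had 94.8, 81.6 and 83.3 CPM in Wt and 16.3, 14.8 and 14.0 in MO. The groups were again far apart, with a difference of −2.45 ± 0.22 (limma adjusted p = 4.58e-04). Both calls were kept without any 1 library.

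The zinc finger gene znf296 (−1.09, limma adjusted p = 0.0396) and the ETS factor gene fli1a (−0.73, 0.0391) also fell. Their calls were less firm, since that of znf296 was lost without any 1 library but MO 2 (adjusted p 0.0974 to 0.217) and that of fli1a without any 1 of the 6 (adjusted p 0.0605 to 0.170). The ETS gene ets1 (−0.85, limma adjusted p = 0.0687) and the T-box gene eomesa (−1.15, 0.354) had lower values and were not called. In eomesa the Wt values were 3.13, 1.38 and 3.41 CPM and the MO values 0.0809, 0.736 and 1.13. The value of MO 1 was 1 read.

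Among the factors that rose, gata1a, the factor that drives erythroid differentiation, had 276, 257 and 322 CPM in Wt and 865, 676 and 665 in MO (1.36 ± 0.18, limma adjusted p = 0.00395). The MiT family factor gene tfec had 2.20, 6.15 and 5.23 CPM in Wt and 29.1, 37.6 and 26.8 in MO (2.61 ± 0.37, limma adjusted p = 0.00538). Neither gene overlapped between groups, and both calls were kept without any 1 library. The stem cell leukaemia factor tal1 (0.93, limma adjusted p = 0.0340), its relative tal2 (1.87, 0.0262), the LIM-only gene lmo1 (1.85, 0.0400), the myeloid ETS factor spi1a (1.12, 0.0283) and the chromatin reader gene mllt3 (1.15, 0.0447) rose as well. Those calls were lost without any 1 library but MO 3 for tal1 (adjusted p 0.0872 to 0.169) and tal2 (0.0710 to 0.136), without any but Wt 3 for lmo1 (0.0879 to 0.176) and mllt3 (0.0504 to 0.195), and without any but MO 1 for spi1a (0.0598 to 0.168). The vessel and blood ETS gene erg (1.41, limma adjusted p = 0.176) and the zinc finger gene zbtb16a (1.08, 0.205) were higher and not called. After rescaling 6 of the 15 were called, and tal1 and spi1a stood at 0.13 and 0.32. Erythrocyte and macrophage genes, given further on, were higher in the same MO libraries, and whether such cells gave part of the rise of gata1a, tal1 or spi1a was not tested. In bulk samples of this kind, fewer cells of a type and less RNA per cell cannot be told apart.

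Receptors, ligands and signalling genes of blood cells were mostly lower in MO. Of 26 on the list 17 were listed, 9 fell, 2 rose and 6 were not called, with a median difference of −1.10. Angpt1, the ligand of the receptor kinase Tie2, had 35.6, 38.7 and 39.0 CPM in Wt 1 to 3 and 3.0, 1.14 and 1.34 in MO 1 to 3. Every MO library lay at or below 3.0 CPM, and the fall was the largest of the listed genes (−3.84 ± 0.34, limma adjusted p = 4.58e-04). The thrombopoietin receptor gene mpl had 9.39, 26.4 and 13.5 CPM in Wt and 1.21, 1.34 and 1.34 in MO. Its Wt libraries spread widely, with Wt 2 highest, and its MO libraries were all near 1 CPM (−2.80 ± 0.40, limma adjusted p = 0.00587). The chemokine receptor gene ccr9a had 369, 339 and 345 CPM against 116, 128 and 101 (−1.61 ± 0.17, limma adjusted p = 0.00103). Pleckstrin (plek), a protein kinase C substrate of blood cells, had 485, 483 and 449 CPM against 232, 219 and 209.7 (−1.10 ± 0.15, limma adjusted p = 0.00538). The calls of these 4 genes were kept without any 1 library.

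The remaining members that fell were the spleen tyrosine kinase gene syk (−1.49, limma adjusted p = 0.00957), the protein kinase C gene prkcbb (−1.75, 0.0169), the adaptor gene skap1 (−1.26, 0.0177), the PI3-kinase delta gene pik3cd (−1.12, 0.0313) and the cytokine receptor gene crfb15 (−2.08, 0.0244). Syk had 103, 158 and 123 CPM in Wt and 44.7, 54.7 and 34.9 in MO, with no overlap, and its call was lost without Wt 2 (adjusted p = 0.0652). Calls were lost for prkcbb without Wt 1 or Wt 2 (adjusted p 0.103 to 0.116), for skap1 without any 1 Wt library (0.0657 to 0.123), for crfb15 without Wt 1, Wt 2 or MO 3 (0.0598 to 0.119) and for pik3cd without any 1 library but MO 2 (0.0742 to 0.169). The apoptosis kinase gene stk17b and the actin regulator gene coro1a were called with the replicate block and not without it. Stk17b stood at −0.90 (limma adjusted p = 0.0903, or 0.0316 with the block) and coro1a at −0.84 (0.0597, or 0.00407). The kinase gene csk, which restrains Src kinases, had a difference of −0.76 (limma adjusted p = 0.0873).

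The chemokine receptor gene ccr12a rose, with 0.666, 3.33 and 4.71 CPM in Wt and 21.5, 37.3 and 26.1 in MO (3.05 ± 0.47, limma adjusted p = 0.00779). The proton channel gene hvcn1 rose by 1.29 (limma adjusted p = 0.0298), a call lost without any 1 of the 6 libraries (adjusted p 0.0657 to 0.159). The platelet glycoprotein gene gp1bb had 4.80, 6.21 and 3.92 CPM in Wt and 6.96, 35.4 and 52.5 in MO. MO 1 lay near the Wt libraries and MO 2 and MO 3 well above them, and the gene was called only with the block (2.08, limma adjusted p = 0.150, or 0.0302 with the block). The CXCL12 receptor gene cxcr4a (1.46, limma adjusted p = 0.171) and the interleukin receptor gene il13ra1 (1.26, 0.141) were higher and not called.

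The 5 listed DNA methyltransferase genes fell in MO, dnmt1 and 4 of the dnmt3 family. They were counted in a list of DNA methylation and chromatin genes, which holds Polycomb genes and also demethylases. Of 16 on the list 9 were listed, 6 fell, 0 rose and 3 were not called, with a median of −1.03. All 9 had lower, non-overlapping values. Over all listed genes 93.2% did not overlap in either direction, and 36.1% were lower without overlap. The de novo methyltransferase gene dnmt3bb.1 had 248, 289.9 and 265 CPM in Wt 1 to 3 and 64.4, 89.6 and 76.6 in MO 1 to 3. No MO library came near a Wt library (−1.80 ± 0.19, limma adjusted p = 0.00103), and the call was kept without any 1 library. Its relative dnmt3ba had 681, 762 and 726 CPM against 304, 376 and 384 (−1.03 ± 0.17, limma adjusted p = 0.00984). That call was lost without Wt 1 or Wt 2 (adjusted p 0.0609 to 0.0616). Dnmt3bb.2 had 53.3, 55.3 and 53.1 CPM against 26.7, 27.2 and 22.7 (−1.05, limma adjusted p = 0.0313), a call lost without any 1 library (adjusted p 0.0504 to 0.170). Dnmt3ab had 49.2, 66.6 and 49.6 CPM against 12.4, 10.7 and 31.4 (−1.69, limma adjusted p = 0.0463). MO 3 was the high library of its group, and the call was lost without any 1 library but MO 3 (adjusted p 0.102 to 0.247).

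The maintenance methyltransferase gene dnmt1 fell from 107 ± 9.53 to 57.6 ± 3.92 CPM (−0.88, limma adjusted p = 0.0371) and the H3K27 demethylase gene kdm6bb from 163 ± 33.2 to 83.0 ± 13.8 (−0.96, 0.0489). Both calls were lost without any 1 library (adjusted p 0.0545 to 0.210 for dnmt1 and 0.0546 to 0.256 for kdm6bb). Uhrf1, which brings Dnmt1 to newly replicated DNA, had a difference of −0.79 (limma adjusted p = 0.0694), the Polycomb methyltransferase gene ezh2 of −0.67 (0.111) and the Polycomb gene phc2b of −1.15 (0.146). After rescaling, which lowered the differences over the listed genes by a median of 0.76, all 9 listed members were lower and called. The calls of lower genes over the whole table moved from 102 to 237 in that setting, so the added calls are no independent check. Gene copies of close sequence can share reads, which may hold for some of the dnmt3 genes. Their sequences were not compared here, and the counting does not say how shared reads were divided.

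**Figure D2:**
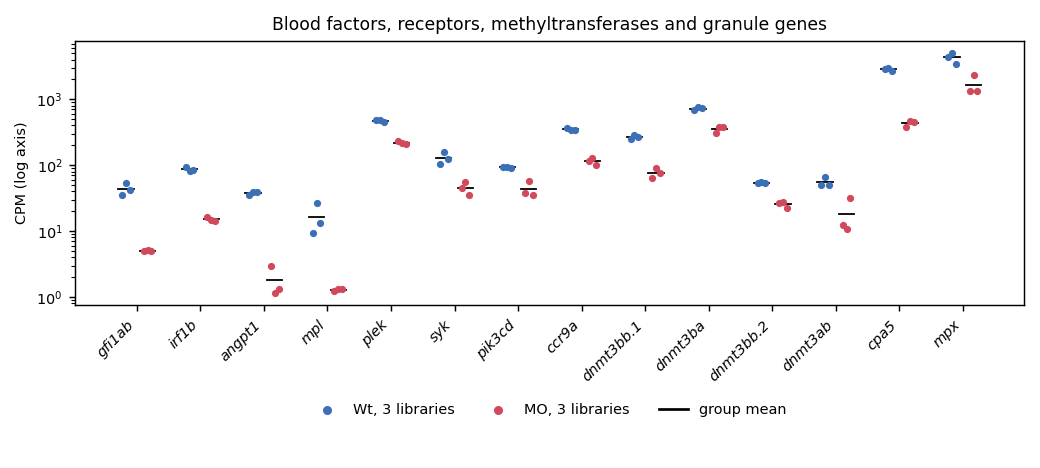
CPM on a log axis for 14 named genes, with 1 point per library (blue Wt, red MO, n = 3 each) and a bar at each group mean. All 14 genes have their MO points below their Wt points, and the distance is largest for angpt1 (37.8 ± 1.89 against 1.82 ± 1.02 CPM, mean ± SD) and mpl (16.4 ± 8.86 against 1.3 ± 0.0715).

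Genes of granulocytes and mast cells were listed for 2 of 14 members, and both fell. The carboxypeptidase gene cpa5, a mast cell marker in zebrafish, had 2901, 2930.2 and 2698 CPM in Wt and 382, 468 and 449 in MO. It had the lowest adjusted p of the genes that fell (−2.72 ± 0.16, limma adjusted p = 8.33e-05), kept without any 1 library. The myeloperoxidase gene mpx, the usual neutrophil marker, had 4376, 5073 and 3466 CPM in Wt and 1339, 2296 and 1312 in MO (−1.42 ± 0.25, limma adjusted p = 0.0169). MO 2 was the high library of its group, and the call was lost without Wt 1, Wt 2 or MO 3 (adjusted p 0.0608 to 0.120). The summed level of both genes was 6164 to 8004 CPM in Wt and 1721 to 2764 in MO.

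Erythrocyte genes were higher in MO. Of 27 globin and haem synthesis genes 17 were listed, all with higher and non-overlapping values, and 12 rose, with a median difference of 1.03. Over all listed genes 93.2% did not overlap, 57.1% were higher without overlap, and the median was 1.02. Their summed level was 3.98 to 5.32% of the library in Wt and 11.2 to 17.7% in MO. The embryonic beta globin gene hbbe1.1 had 15376, 11458 and 14966 CPM in Wt 1 to 3 and 47886, 37578 and 56991 in MO 1 to 3 (1.76 ± 0.26, limma adjusted p = 0.00722), and the alpha globin gene hbae3 had 15279, 11922 and 15619 and 49358, 37608 and 52778 (1.70 ± 0.25, 0.00722). In both genes Wt 2 and MO 2 were the low libraries of their groups, and both calls were lost without Wt 1 (adjusted p = 0.0600 and 0.0634). The call of hbbe2, which had 681, 493 and 654 CPM in Wt and 3358, 1606 and 3209 in MO (2.10 ± 0.28, limma adjusted p = 0.00418), was kept without any 1 library. Hbbe3 (1.51, limma adjusted p = 0.0333) and hbae1 (1.77, 0.0370) rose too, with calls lost without any 1 library but MO 2 (adjusted p 0.0778 to 0.166 and 0.0671 to 0.161). Globin genes of the same kind can be close in sequence and share reads, so their separate values are uncertain. Their sequences were not compared here.

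The enzymes of haem synthesis moved by less. Alas2, the first enzyme of the pathway in erythroid cells, had 879, 718 and 909 CPM in Wt and 1920.4, 1623 and 1487 in MO (1.0, limma adjusted p = 0.0171), and its call was lost without MO 1 or any 1 Wt library (adjusted p 0.0528 to 0.102). Ferrochelatase (fech), the last enzyme, rose by 1.06 (limma adjusted p = 0.0158, lost without MO 1, Wt 1 or Wt 2 at 0.0591 to 0.103). Hmox1a, which breaks haem down and is also high in macrophages, had 29.3, 16.6 and 50.0 CPM in Wt and 239.8, 212 and 249 in MO (2.96 ± 0.33, limma adjusted p = 0.00150). After rescaling 4 of the 17 were called, with a median of 0.23 and all 17 still higher.

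Of 31 other erythrocyte genes 19 were listed, 11 rose and 2 fell, with a median of 1.15. The carbonic anhydrase gene cahz had 1381, 972 and 1203 CPM in Wt and 3888, 2908 and 3078 in MO (1.48 ± 0.20, limma adjusted p = 0.00451). The row named mir144, the precursor gene of a microRNA of erythrocytes, had 3.93, 4.89 and 4.94 CPM in Wt and 41.9, 20.1 and 51.2 in MO (2.70 ± 0.37, limma adjusted p = 0.00495). Its neighbour mir451a rose by 2.06 (limma adjusted p = 0.0333), a call lost without any 1 library but MO 2 (adjusted p 0.0855 to 0.150). The erythroid Krüppel-like factor klf17 (1.38, limma adjusted p = 0.00973, lost without Wt 1 or Wt 2 at 0.0565 to 0.0753) and the water channel gene aqp1a.1 (1.29, 0.0177, lost without MO 1, Wt 1 or Wt 2 at 0.0504 to 0.116) rose. The 2 members that fell were the selenium-binding protein gene selenbp1, from 122 ± 5.81 to 31.4 ± 6.53 CPM (−1.94 ± 0.21, limma adjusted p = 0.00136), and the transferrin receptor gene tfr1b (−0.94, 0.0383, lost without any 1 library at 0.0602 to 0.195). After rescaling 3 of the 19 were called and 1 higher value turned lower.

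Macrophage genes had the most calls kept on removing libraries, 12 of 18. Of 29 on the list 23 were listed, 17 rose and 1 fell, with a median difference of 1.70 against 1.02 over all listed genes. The chemokine gene ccl34a.4 had 14.1, 8.16 and 14.1 CPM in Wt 1 to 3 and 168, 167 and 274 in MO 1 to 3. It showed the largest rise of the called genes (3.96 ± 0.29, limma adjusted p = 1.3e-04), with MO 3 highest. Havcr1, a phosphatidylserine receptor for dying cells, had 11.2, 7.78 and 14.0 CPM in Wt and 156, 144 and 152 in MO (3.69 ± 0.25, limma adjusted p = 9.14e-05). Mfap4, used as a macrophage marker in zebrafish, had 61.7, 27.9 and 42.1 CPM in Wt and 459.6, 459 and 415 in MO (3.38 ± 0.26, limma adjusted p = 1.82e-04). In both genes the MO libraries lay close together and far above the Wt libraries.

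The colony-stimulating factor receptor gene csf1ra, which macrophages need to survive, had 1.13, 2.20 and 2.90 CPM in Wt and 12.4, 22.4 and 14.5 in MO (2.50, limma adjusted p = 0.00722). The perforin gene mpeg1.1 had 15.1, 18.4 and 24.1 CPM in Wt and 109, 168 and 89.6 in MO (2.58, limma adjusted p = 0.00136). Irf8, the factor that sets macrophage over neutrophil fate, had 3.20, 5.15 and 6.70 CPM in Wt and 27.3, 41.8 and 36.1 in MO (2.61, limma adjusted p = 0.00310). MO 2 was the high library of its group for these 3 genes, and the calls were kept without any 1 library. The membrane protein gene ms4a17a.9 (2.88, limma adjusted p = 5.30e-04) and the cathepsin gene ctssb.2 (2.33, 0.00710) rose as well. The 1 member that fell was a second cathepsin S gene, ctssa, from 20.7 ± 6.56 to 3.89 ± 1.93 CPM (−2.20, limma adjusted p = 0.0210, lost without Wt 1 or Wt 2 at 0.116 to 0.132). Of the 23 listed members 21 had higher and 2 lower values, and with the replicate block 19 rose and 2 fell. The list as a whole summed to 3529.8 to 3816 CPM in Wt and 4091 to 5511 in MO. The ratio of the mean sums was 1.29, small beside the median difference of 1.70 on the log2 scale. After rescaling 12 of the 23 were called.

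Genes of the lysosome and of the vacuolar ATPase, the pump that acidifies it, moved in the same direction. Of 45 on the list 23 were listed, 12 rose and 1 (ctssa) fell, with a median of 0.99 beside 1.02 over all listed genes. The pump subunit gene atp6v0ca had 216, 199.8 and 199 CPM in Wt and 649, 934 and 649 in MO (1.83 ± 0.19, limma adjusted p = 9.52e-04), kept without any 1 library. The cathepsin L gene ctsla rose from 52.7 ± 24.9 to 213 ± 36.7 CPM (2.09, limma adjusted p = 0.00785, lost without Wt 1 at 0.0595), and the pump gene tcirg1b by 1.66 (0.0177, lost without MO 2 or any 1 Wt library at 0.0566 to 0.120). After rescaling 5 of the 23 were called and 3 higher values turned lower, with a median of 0.22 beside 0.28 over all listed genes. Several of these genes are also on the macrophage list (ctssa, ctssb.2, ctsba, lgmn, grna, psap).

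Inflammatory genes split. Of 21 interferon and inflammatory genes 17 were listed, 6 rose and 3 fell, or 11 and 3 with the replicate block, with a median of 1.61. The tumour necrosis factor gene tnfb had 124, 84.8 and 70.7 CPM in Wt and 473, 264 and 378 in MO (1.98 ± 0.26, limma adjusted p = 0.00415). The macrophage enzyme gene irg1 (1.75, limma adjusted p = 0.00939, lost without Wt 1 or Wt 2 at 0.0509 to 0.0537) and the NF-kappaB inhibitor gene nfkbiaa (1.61, 0.0465, lost without any 1 library but MO 2 at 0.0777 to 0.179) rose. The members that fell were irf1b and crfb15, given above, and complement factor H (cfh), which had 42.2, 50.9 and 42.6 CPM in Wt and 9.47, 11.1 and 7.10 in MO (−2.19 ± 0.27, limma adjusted p = 0.00273).

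**Figure D3:**
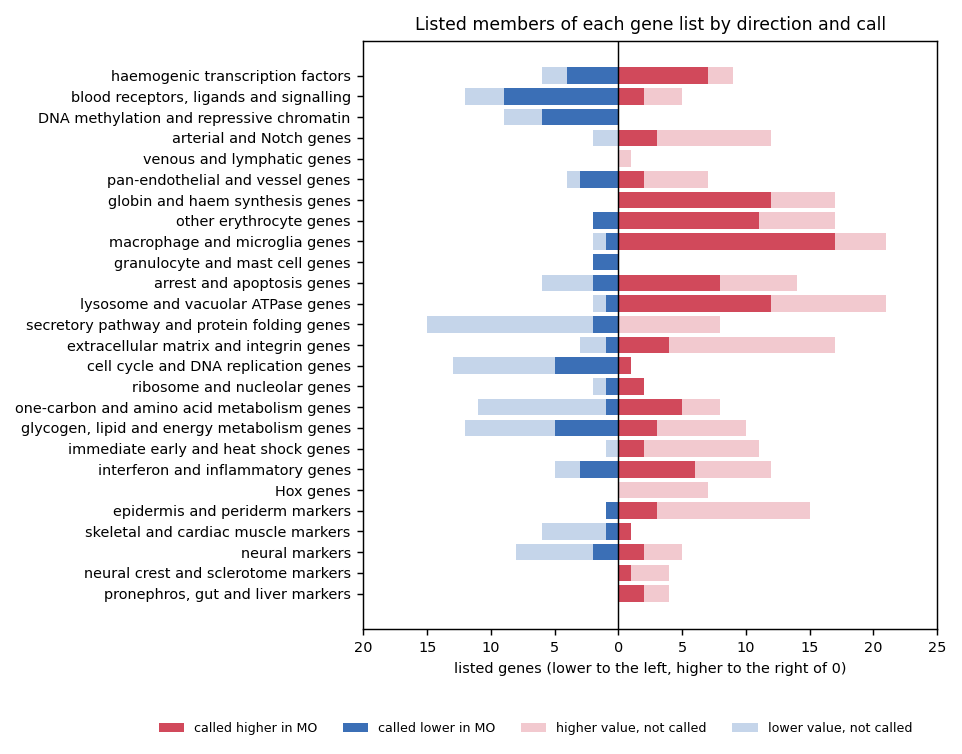
For each gene list, the number of listed members with lower values in MO (left of 0) and higher values (right of 0), with called genes in dark colours and genes not called in pale ones. The DNA methylation and repressive chromatin list lies wholly to the left (6 called of 9, among them the demethylase gene kdm6bb), the globin and haem list wholly to the right (12 called of 17), and the macrophage list has 17 called higher of 23.

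Arterial genes were higher in MO for most of the listed members, although few were called. Of 33 on the list 14 were listed, and 12 had higher values, beside 421 of all 676 listed genes. Of the 14, 3 rose and 0 fell, a share called of 21.4% beside 41.4% over all listed genes. The median was 1.57 beside 1.02 over all listed genes. With the replicate block 7 rose, and after rescaling 1 was called. The SoxF genes sox17 and sox32 are transcription factors of arterial endothelium and endoderm. Sox17 had 10.4, 6.46 and 13.7 CPM in Wt and 45.1, 33.9 and 39.6 in MO (1.90 ± 0.31, limma adjusted p = 0.0107), and sox32 had 5.33, 5.40 and 7.67 and 32.6, 18.5 and 34.4 (2.02 ± 0.33, 0.0108). Neither overlapped between groups, and both calls were lost without Wt 1 or Wt 2 (adjusted p 0.0521 to 0.0638 for sox17 and 0.0657 to 0.0753 for sox32). The Notch ligand gene dlc had 7.13, 3.70 and 13.6 CPM in Wt and 29.0, 27.4 and 32.3 in MO (1.89, limma adjusted p = 0.0371), a call lost without any 1 library but Wt 3 (adjusted p 0.0696 to 0.169).

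Members called with the block alone were the Notch target gene hey2 (1.69, limma adjusted p = 0.0951, or 0.00987 with the block), the ephrin gene efnb2b (1.74, 0.0903, or 0.0154), the water channel gene aqp8a.1 (2.10, 0.118, or 0.00330) and the growth factor gene vegfc (1.67, 0.214, or 0.0315). These genes were named after their values were seen. Aqp8a.1 had 7.06, 4.96 and 29.6 CPM in Wt and 55.8, 27.0 and 72.2 in MO, and Wt 3 lay above MO 2, so the groups overlapped. The 2 lower members were the receptor gene notch1b (−1.51, limma adjusted p = 0.0860) and vegfab (−0.92, 0.468). The venous list had 1 listed member of 15, which limma did not call. It had an unadjusted p under 0.05, as did 97.8% of all listed genes.

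Of 26 pan-endothelial and other vessel genes 11 were listed, 2 rose and 3 fell, or 4 and 3 with the block. The chemerin receptor gene cmklr1 had 8.26, 6.84 and 6.70 CPM in Wt and 41.0, 55.9 and 38.8 in MO (2.47 ± 0.27, limma adjusted p = 0.00140). Apela, which codes for a ligand of the apelin receptor, had 5.13, 4.46 and 5.40 CPM in Wt and 23.5, 19.1 and 31.4 in MO (2.07 ± 0.31, limma adjusted p = 0.00722). Both calls were kept without any 1 library. P-selectin (selp) fell from 11.5 ± 2.40 to 2.45 ± 1.82 CPM (−1.96, limma adjusted p = 0.0365, lost without any 1 library but MO 2 at 0.0866 to 0.192) and paladin (pald1a) from 595 ± 119 to 258 ± 61.9 (−1.21, 0.0190, lost without any 1 Wt library at 0.0566 to 0.108).

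Genes of stress-induced cell cycle arrest and apoptosis were mostly higher in MO, as were the listed genes as a whole. Of 32 arrest and apoptosis genes 20 were listed, and 14 had higher values, beside 421 of all 676 listed genes. Of the 20, 8 rose and 2 fell, a share called of 50% beside 41.4% over all listed genes. The median was 1.29 beside 1.02 over all listed genes. Their summed level was 1308 to 1427 CPM in Wt and 3807 to 5382 in MO. Cyclin G1 (ccng1), which DNA damage induces, had 320.5, 305 and 295 CPM in Wt 1 to 3 and 2398, 1784 and 1582 in MO 1 to 3 (2.62 ± 0.19, limma adjusted p = 1.3e-04). MO 1 was highest, and all MO libraries lay far above all Wt libraries. The stress kinase gene plk3 (2.49, limma adjusted p = 0.00103), phlda2 (2.18, 0.00310), the ubiquitin ligase gene mdm2 (1.72, 0.00587), and gadd45ba (1.36, 0.00762) rose too. The calls of these 5 genes were kept without any 1 library.

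Phlda3, an inhibitor of Akt signalling, had 1.87, 0.314 and 0.454 CPM in Wt and 22.8, 7.23 and 5.56 in MO (2.63, limma adjusted p = 0.0304), lost without any 1 library but MO 3 (adjusted p 0.0595 to 0.160). Sesn3 rose by 1.82 (limma adjusted p = 0.0107, lost without Wt 1 or Wt 2 at 0.0652 to 0.0710). The cell cycle inhibitor gene cdkn1a (1.40, limma adjusted p = 0.176) and the pro-apoptotic gene bbc3 (1.60, 0.104) had higher, non-overlapping values and were not called. The 2 that fell were mdm4, a relative of mdm2 (−1.35, limma adjusted p = 0.0107, lost without Wt 1 or Wt 2 at 0.0583 to 0.0809), and the DNA repair gene parp1 (−1.10, 0.0103, lost without any 1 Wt library at 0.0545 to 0.0675).

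The same MO was measured in double-negative cells (DN), which carry neither reporter, with 3 MO and 3 Wt libraries of their own. That comparison listed 176 genes, and 63 were in both, 9.32% of the DP-R1hi table and 35.8% of the DN table. Of the 63, 32 were higher in both gates, 10 lower in both, 19 higher in DP-R1hi and lower in DN, and 2 the other way. Among the arrest and apoptosis list 13 members were listed in DN and 13 had higher values there, with a median of 2.82. The share of higher values over all 176 genes listed in DN is not given here. Ccng1 had 319, 291 and 276 CPM in Wt-DN 1 to 3 and 3651, 3010.3 and 2519.6 in MO-DN 1 to 3, a difference of 3.36 beside 2.62 in DP-R1hi. The DN differences were 3.42 for mdm2, 3.30 for phlda3, 2.84 for cdkn1a and 2.76 for bbc3, beside 1.72, 2.63, 1.40 and 1.60 in DP-R1hi. Lnx1, an E3 ubiquitin ligase gene, stood at 4.38 in DN and 3.83 in DP-R1hi. Whether the size of these differences differed between the gates was not tested.

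Erythrocyte genes lay on opposite sides in the gates, except selenbp1, which was lower in both (−1.08 in DN), and foxo3b, which was higher in both (1.63 in DN and 0.85, not called, in DP-R1hi). Hbbe1.1 had 479, 441 and 654 CPM in Wt-DN and 209, 189.6 and 105 in MO-DN, a difference of −1.68 beside 1.76 in DP-R1hi. Of the globin and haem list 8 members were listed in DN, 8 with lower values, and of the other erythrocyte genes 6, of which 5 were lower. Cahz stood at −1.71 in DN and 1.48 in DP-R1hi. Of the macrophage genes, 2 were listed in DN and lower there, among them mfap4 (−1.19). Of the granulocyte and mast cell genes 4 were listed in DN, 4 with lower values, and the median was −0.93. Among them mpx was lower in both gates (−0.90 in DN, −1.42 in DP-R1hi). Gfi1ab, irf1b, angpt1, mpl and the genes of the DNA methylation and chromatin list were not listed in DN, where a gene that was not called by the authors has no value.

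**Figure D4:**
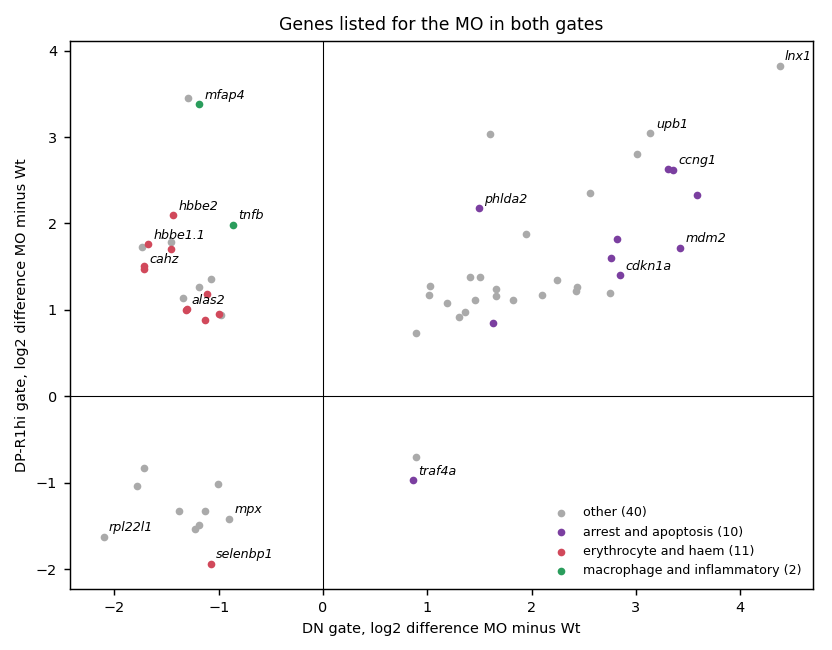
Each point is 1 of the 63 genes listed for the MO in both gates, with the log2 difference, MO minus Wt, in DN on the x axis and in DP-R1hi on the y axis (means of 3 libraries per group). Arrest and apoptosis genes (all but traf4a) lie above 0 in both, ccng1 at 3.36 and 2.62, while erythrocyte genes (all but selenbp1 and foxo3b, the latter drawn with the arrest and apoptosis genes because it is on both lists) lie left of 0 in DN and above 0 in DP-R1hi, hbbe1.1 at −1.68 and 1.76.

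Of 36 cell cycle and replication genes 14 were listed, 13 with lower values in MO, and 5 fell and 1 rose, or 8 and 1 with the replicate block, with a median of −0.92. The share called, 42.9%, was close to the 41.4% over all listed genes, and 0 of the 6 calls were kept through every omission of 1 library. The DNA topoisomerase gene top2a had 164, 273 and 217 CPM in Wt and 117, 109 and 99.2 in MO (−0.98, limma adjusted p = 0.0425), and the microtubule regulator gene stmn1a had 324, 312 and 308 and 136, 139.9 and 217 (−0.97, 0.0391). The call of top2a was lost without any 1 library (adjusted p 0.0583 to 0.215) and that of stmn1a without any 1 but MO 3 (0.114 to 0.196). The member that rose was the cell cycle inhibitor gene cdkn1ca (1.51, limma adjusted p = 0.0465, lost without any 1 library at 0.0545 to 0.221). The chaperones and enzymes of the secretory pathway had 23 listed members of 33 and a median of −0.84. Of these 2 fell and 0 rose, or 8 and 0 with the block, with rrbp1a at −0.98 (limma adjusted p = 0.0400) and nucb2b at −1.44 (0.0376). Those calls were lost without any 1 library but MO 3 for rrbp1a (adjusted p 0.0992 to 0.231) and but MO 2 for nucb2b (0.0878 to 0.223).

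Metabolic genes moved both ways. Of the 22 listed glycogen, lipid and energy genes 5 fell and 3 rose, or 6 and 5 with the block, and 2 higher values turned lower after rescaling. The cholesterol hydroxylase gene ch25h, an interferon-induced enzyme in mammals, had 1.2, 0.628 and 1.59 CPM in Wt and 13.0, 14.4 and 11.3 in MO (2.72 ± 0.34, limma adjusted p = 0.00285). Hacd3, an enzyme of fatty acid elongation, fell from 157 ± 20.6 to 59.0 ± 11.4 CPM (−1.41, limma adjusted p = 0.00722, lost without Wt 1 at 0.0624). Of the 19 listed one-carbon and amino acid genes 8 had higher and 11 lower values, with a median of −0.90 beside 1.02 over all listed genes. Among the 19, 5 rose and 1 fell, a share called of 31.6% beside 41.4%. Slc43a2b, an amino acid transporter gene, had 0.267, 0.690 and 1.99 CPM in Wt and 13.4, 17.1 and 9.98 in MO (2.93 ± 0.41, limma adjusted p = 0.00518). Upb1, an enzyme of pyrimidine breakdown, rose by 3.05 (limma adjusted p = 0.00409) and was higher in DN as well (3.14). The branched-chain aminotransferase gene bcat1 fell by −1.58 (limma adjusted p = 0.0312, lost without any 1 library at 0.0540 to 0.168). Serine and folate genes of this list, such as phgdh (−0.78, limma adjusted p = 0.886) and mthfd1l (−1.12, 0.348), had lower values and were not called.

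Genes of matrix and body position were higher without many calls. Of 20 listed matrix and integrin genes 17 had higher values, beside 421 of all 676 listed genes. Of the 20, 4 rose and 1 fell, a share called of 25% beside 41.4% over all listed genes. The collagen gene col1a2 had 9.13, 7.09 and 3.86 CPM in Wt and 29.6, 31.8 and 23.3 in MO (1.98, limma adjusted p = 0.0141, lost without MO 2 or Wt 2 at 0.0552 to 0.0616). All 7 listed Hox genes had higher values. Limma called 0 of them, beside 41.4% over all listed genes, and 1 with the block. All 7 had an unadjusted p under 0.05 in limma, as did 97.8% of all listed genes. That gene, hoxd3a, had a difference of 1.70 (limma adjusted p = 0.0799, or 0.0208 with the block).

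Listed markers of other tissues were counted and summed as a description. Only genes that the authors called between these same libraries were listed, and unlisted markers have no value. A difference in these sums is therefore no independent measure of what else the gate held. Epidermis and periderm markers were listed for 16 of 25, 3 rose and 1 fell, or 9 and 1 with the block, and their summed level was 333 to 531 CPM in Wt and 821 to 3893 in MO. The periderm keratin gene krt4 had 27.0, 7.59 and 20.3 CPM in Wt 1 to 3 and 2397, 874 and 18.4 in MO 1 to 3. MO 1 and MO 2 stood far above the Wt libraries and MO 3 within them, and the same held for cyt1l, with 1.47, 0.251 and 1.42 CPM in Wt and 215, 79.8 and 0.515 in MO. Neither was called (limma adjusted p = 0.219 and 0.368), and both were with the block (0.0165 and 0.0453). These 2 were named after their values were seen. The annexin gene anxa2a (2.86, 1.26 and 0.114 CPM in Wt, 68.4, 18.5 and 19.3 in MO, limma adjusted p = 0.00778) and its partner s100a10b (16.2, 10.9 and 16.4 and 127, 61.6 and 111, 0.00182) rose in all MO libraries. The marker aqp3a fell, from 179 ± 27.6 to 62.1 ± 16.4 CPM (−1.53, limma adjusted p = 0.00738).

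Muscle markers were listed for 7 of 20 (1 rose, 1 fell), neural markers for 13 of 23 (2 and 2), neural crest and sclerotome markers for 4 of 15 (1 and 0) and pronephros, gut and liver markers for 4 of 15 (2 and 0). The summed levels were 113 to 446 CPM in Wt and 139 to 175 in MO for muscle, with Wt 3 far above the others. They were 246 to 307 and 338 to 412 CPM for neural markers, and 10.7 to 13.5 and 39.6 to 57.8 for neural crest and sclerotome. The opioid precursor gene penka had 4.33, 2.64 and 2.16 CPM in Wt and 28.0, 19.9 and 22.7 in MO (2.63 ± 0.33, limma adjusted p = 0.00310). The sums of the muscle markers overlapped between the groups. Those of the neural, neural crest and sclerotome markers were higher in every MO library than in every Wt library, and their part in the other results was not tested. Among the 13 listed neural markers, however, 8 had lower and 5 had higher values in MO, with a median difference of −1.30. The higher neural sum therefore came from the smaller number of members, penka among them. Without MO 1, the library with the highest epidermal sum, 195 genes were called.

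**Figure D5:**
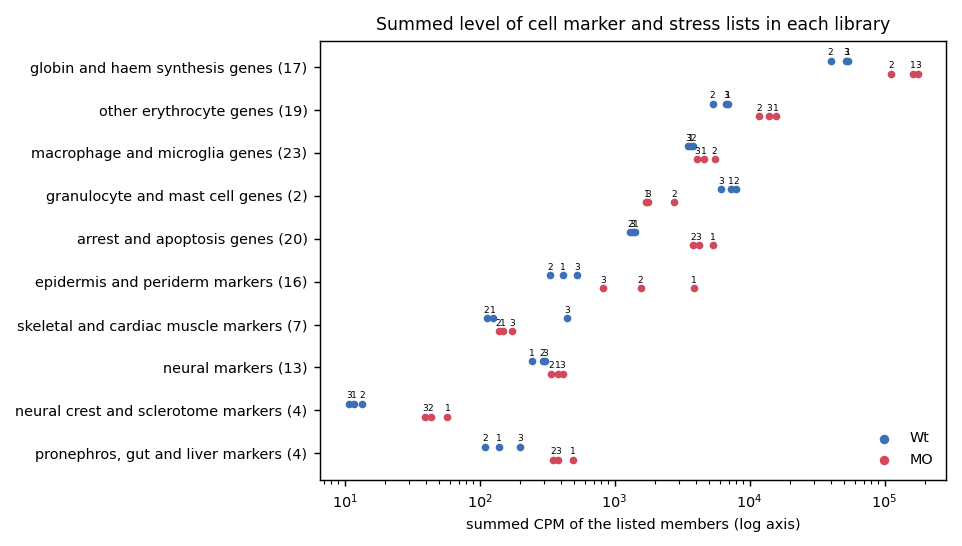
Summed CPM of the listed members of 10 marker and stress lists, on a log axis, with 1 point per library labelled by its replicate number (blue Wt, red MO). Only genes the authors called between these libraries enter the sums, so a difference between the groups is no independent evidence. The globin list stands at 39844 to 53209 CPM in Wt and 112039 to 176857 in MO, and the epidermal list spreads from 821 to 3893 CPM over the MO libraries.

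Among the largest changes of genes on none of the lists, lnx1 had 2.40, 0.377 and 1.14 CPM in Wt and 58.9, 24.3 and 17.8 in MO (3.83 ± 0.49, limma adjusted p = 0.00354), with MO 1 highest. The galectin gene lgals2a had 32, 26.9 and 28.9 CPM in Wt and 199, 310.1 and 395 in MO (3.27 ± 0.25, limma adjusted p = 1.82e-04). Mafba, a large Maf factor of macrophages and hindbrain, had 2.53, 1.82 and 1.53 CPM in Wt and 22.3, 24.6 and 55.5 in MO (3.46 ± 0.39, limma adjusted p = 0.00165). Every MO library of these genes was far above every Wt library. The corticotropin-releasing hormone binding protein gene crhbp rose by 3.07 (limma adjusted p = 5.26e-04) and the gene zgc:173915 by 3.46 (8.33e-05). The mitochondrial ribosomal protein gene mrpl28 had 75.4, 66.1 and 69.0 CPM in Wt and 13.1, 20.1 and 12.1 in MO, the largest fall outside the lists after zgc:158868 (−2.17 ± 0.26, limma adjusted p = 0.00193 for mrpl28 and −2.36 at 0.00564 for zgc:158868). The ribosomal protein gene rpl22l1, which is on the list of ribosome and nucleolar genes, fell from 218 ± 44.7 to 72.4 ± 28.4 CPM (−1.63, limma adjusted p = 0.0142, lost without Wt 1 or Wt 2 at 0.0866 to 0.116) and was lower in DN (−2.10).

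The Wt DP-R1hi libraries were also compared with the aortic roof gate, and 397 of the 676 genes were listed there, 105 higher and 292 lower in DP-R1hi. These libraries are shared by both comparisons, so the values are given side by side only. Some genes that fell in MO were higher in DP-R1hi than in DP-R1lo on the log2(CPM + 1) scale. The differences were 4.47 for gfi1ab, 3.36 for irf1b, 2.76 for mpl, 2.53 for dnmt3bb.1 and 1.04 for angpt1. These genes were picked, and the values of the other genes with large falls are not given here. All 7 genes of the DNA methylation and chromatin list that were listed there were higher. Of the macrophage genes 21 were listed and 21 were lower in DP-R1hi, with −4.66 for ccl34a.4 and −4.24 for mpeg1.1. Of the arterial genes 10 of 11 were lower, and the exception was sox17 (2.02). Of the epidermal markers 13 of 13 were lower. The erythroid factor gene gata1a was higher in DP-R1hi (0.80) and rose in MO (1.36).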

How the data were processed

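RNA from at least 3000 sorted cells per sample, 2.2 ng of total RNA, went into SMARTer low-input libraries. The authors used Trimmomatic 0.32 for trimming, STAR for alignment (genome named as Zv10), featureCounts for counting and edgeR for testing, MO and Wt of DP-R1hi and DN in 1 model. Strandedness is not given in the sources used here, so antisense and overlapping genes cannot be told apart. The deposited CPM values are the authors' reads per gene relative to the effective size of the library (counts per M reads). The deposited log2 columns (their fold change and mean level), score column (their likelihood ratio) and p-value columns (p and false discovery rate) hold the authors' findings and were not used, except that the ratio of false discovery rate to p-value and rank gave the number of genes tested, 11479. The rank of the last listed gene was 918, so 242 genes under the threshold were left off the table, whose genes the authors chose at a false discovery rate under 0.05 and with fewer than 3 values of 0.

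Each column was matched to a sample through its name. All values (100%) were whole multiples of 1 step (tolerance 1e-06), taken as 1 read. The values were the authors' CPM, so no count model was used as the main test. Log2(CPM + 1), with no filter, was fitted with limma 3.58.1 in R 4.3.3 (mean trend, two-sided), coded MO minus Wt. Benjamini-Hochberg adjustment was over 11479 tests, with unlisted genes counted as not significant. The script was tested on simulated data. Labels do not say what a replicate number stands for, and p-values measure the spread between these samples only. The methods state that clutches were split between MO and Wt, and same-numbered libraries deviated together (r = 0.128, 0.313 and 0.118 across the listed genes), so the replicate block pairs them. The pairing is weak, since MO 1 and Wt 3, numbered differently, were also at r = 0.118. Alternatives were other pseudocounts, a minimum of 5 CPM, rescaling, the block, no trend, adjustment over the listed genes and leaving out each library.

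The members and 26 lists (631 genes, 325 listed) were chosen with earlier results of these data known. Genes named were the 15 largest rises and 15 largest falls among called genes that did not overlap, up to 6 called genes each way per list, and the listed members of the haemogenic, receptor and DNA methylation lists, or others where a count was small. Some called genes beyond 6 in a list and some uncalled members were named after their values were seen. A row whose name had been stored as a date was fitted and not named. A listed gene of the arrest and apoptosis list is counted with its list and not reported here.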

Additional observations from a re-analysis of the deposited data

Results flagged for a closer look

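For 21 genes every MO library lay on one side of every Wt library in the DP-R1hi gate and on the opposite side in the DN gate. They are all of the genes with opposite directions among the 63 listed in both gates. The authors had called each of them in both gates on these libraries, and 93.2% of all genes listed in DP-R1hi did not overlap. The lack of overlap therefore adds no evidence. The difference between the gates was not tested. Each gene is given with its difference on the log2(CPM + 1) scale, MO minus Wt, first in DP-R1hi and then in DN.

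Higher in DP-R1hi and lower in DN were the erythrocyte and haem genes hbbe2 (2.10 and −1.43), hbbe1.1 (1.76 and −1.68), hbae3 (1.70 and −1.46), hbbe3 (1.51 and −1.71), cahz (1.48 and −1.71), blvrb (1.18 and −1.11), rhd (1.01 and −1.31), alas2 (1.0 and −1.31), tspo (0.95 and −1.0) and hmbsb (0.88 and −1.13). The macrophage gene mfap4, the cytokine gene tnfb and the tight junction gene cldn5b lay the same way, at 3.38 and −1.19, 1.98 and −0.86, and 1.26 and −1.19. So did zgc:173915 (3.46 and −1.29), si:ch211-5k11.12 (1.78 and −1.46), MGC173646 (1.72 and −1.74), zgc:163057 (1.35 and −1.07), nmt1b (1.14 and −1.34) and rfesd (0.95 and −0.97). Lower in DP-R1hi and higher in DN were mybbp1a (−0.70 and 0.89) and traf4a (−0.97 and 0.86).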

How the results depend on the processing

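Limma called 280 genes (178 higher, 102 lower), 138 of them on the gene lists. A pseudocount of 0.5 or 4 and a minimum mean of 5 CPM kept all of these counts within 1.5 times (276, 267 and 249 calls). Without a mean trend 158 genes were called, 109 higher and 49 lower, with 76 on the lists, and 153 of them were among the 280. Adjusting over the listed genes alone gave 661 calls, 415 higher and 246 lower, with 315 on the lists. Rescaling by median ratios over the listed genes gave 293 calls, 56 higher and 237 lower, of which 158 were among the 280. Leaving out 1 library at a time gave 94 to 230 calls, 75 to 145 higher and 19 to 85 lower, and 53 to 113 on the lists. The cause of these shifts was not tested, beyond the smaller number of samples in the last. Of the 142 genes picked by the naming rule, 0 turned in direction in any of these fits. Over all listed genes 93.2% did not overlap, and such a gene keeps its direction whichever library is left out. The block, the trend and the adjustment leave the difference itself unchanged. The count of 0 was therefore largely fixed by the choice of genes and is no evidence that the calls are firm. With the replicate block, which pairs the libraries of the same number, 376 genes were called (242 higher, 134 lower), 278 of them among the 280, with 190 on the lists. Among the genes picked by the naming rule the block added stk17b, coro1a and gp1bb and changed no other call. The planned search of promoter windows for motifs was not run.

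Genes that the authors tested and did not list have no values here, so 242 genes under their threshold could not be examined, and no count speaks of genes that did not change. With 3 libraries a group and 1 read worth up to 0.103 CPM, values near 1 CPM rest on few reads.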

Other observations

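Stress and growth genes outside the groups described above were mixed. Of 21 immediate early and heat shock genes 12 were listed, 11 with higher values, and 2 rose, or 4 with the replicate block. The AP-1 gene fosl1a had 29.3, 30.4 and 45.6 CPM in Wt and 105, 70.8 and 72.9 in MO (1.22, limma adjusted p = 0.0357), and it was higher in DN as well (2.42). The autophagy receptor gene sqstm1 rose from 41.5 ± 6.88 to 104 ± 31.8 CPM (1.27, limma adjusted p = 0.0340). Both calls were less firm, since that of fosl1a was lost without any 1 library but Wt 3 (adjusted p 0.0586 to 0.189) and that of sqstm1 without any 1 but MO 3 (0.0638 to 0.187).

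Of 27 ribosome and nucleolar genes 4 were listed here and 17 in DN, where 16 had higher values. The Myc genes mycb (1.17, limma adjusted p = 0.0131, lost without Wt 1 or Wt 2 at 0.0809 to 0.0998) and mycn (1.06, 0.0371, lost without any 1 library but MO 1 at 0.0972 to 0.168) rose in DP-R1hi. The liver hormone gene hamp, which controls iron export, had 1.67, 0 and 0.0568 CPM in Wt and 6.56, 5.02 and 23.5 in MO (2.88, limma adjusted p = 0.0313). MO 3 was the high library, and the call was lost without MO 3 or any 1 Wt library (adjusted p 0.0556 to 0.161).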
